A study of Cavia porcellus with 14 samples.

Results

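Highly methylated cytosine positions were examined in blood DNA of newborn guinea pigs (Cavia porcellus) exposed before birth to betamethasone, a synthetic glucocorticoid. Members were all positions of the authors' deposited list of differentially methylated positions that lay outside scaffold 111 and had a plain mean level of both treatment groups over 80%. This rule selected 2557 positions, 42.5% of the 6017 on the list and 54.0% of the 4738 outside scaffold 111. The members were thus chosen by their levels in both groups, and the list is itself the outcome of the authors' comparison of the groups. Levels and differences are therefore given as descriptions.

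The study measured methylation by reduced representation bisulfite sequencing, which enriches DNA fragments rich in CpG and reads unmethylated cytosines as converted bases. DNA came from dried whole-blood spots of female offspring, 7 whose mothers received betamethasone and 7 whose mothers received saline on gestational day 50/51. The labels name no treatment of the offspring after birth and give no strain, litter or blood cell count. The table holds the summed reads of each group, called a pool here, and no value per animal, so no spread between animals can be given.

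Methylation of the cytosine in a CpG is the common state of most of the vertebrate genome, including repeats, gene bodies and the DNA between genes, while promoters with dense CpG are mostly unmethylated. A maintenance methyltransferase copies the mark to the new strand after each cell division, and oxidising TET enzymes help to remove it. At a nearly full site a difference between groups shows as a few more or fewer unmethylated reads among many methylated ones. Whole blood mixes cell types with different methylation, so a change in cell makeup and a change within cells cannot be told apart in these data.

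Coverage summed over the members was 325039 reads in the betamethasone pool and 306991 in the saline pool. A read over several positions is counted at each of them, here and in all sums of reads and their intervals below. Median coverage per position was 103 reads (quartiles 41 and 197) after betamethasone and 99 reads (quartiles 43 and 183) after saline, with a minimum of 10 in either. A position held a median of 7 unmethylated reads in each pool, and these few reads set its level. Positions are given by scaffold number and coordinate as deposited, in a build not given in the sources used here. No gene, feature or sequence is therefore assigned to them.

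The mean level over the members was 91.7% in both pools, and the mean difference (betamethasone minus saline) was 0.06 percentage points with an SD of 5.72 points over positions. Methylation was higher after betamethasone at 1278 members and lower at 1260, with 19 equal. On the whole list 52.1% of positions were higher and 47.3% lower, and among the members these shares were 50.0% and 49.3%. Of the members with a difference, 50.4% were higher (95% exact interval 48.4 to 52.3, which treats positions as independent). The split between gain and loss was close to even. At the 835 intermediate positions outside scaffold 111 (20 to 80%), 58.8% of those with a difference were higher (interval 55.4 to 62.2), and at the 1346 low positions (under 20%) 51.4% were. That contrast between level classes was not tested, since positions of all classes come from the same pools.

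Summed over the members, 26344 of the betamethasone reads (8.10%) and 25663 of the saline reads (8.36%) were unmethylated. The betamethasone pool thus had 0.97 times the unmethylated share of the saline pool, a difference of -0.25 points (95% Newcombe interval -0.39 to -0.12). This interval covers counting of reads only. It does not hold variation between animals, and reads of neighbouring positions are not independent. The plain mean over positions went the same way but was smaller, at 0.06 points.

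**Figure D1:**
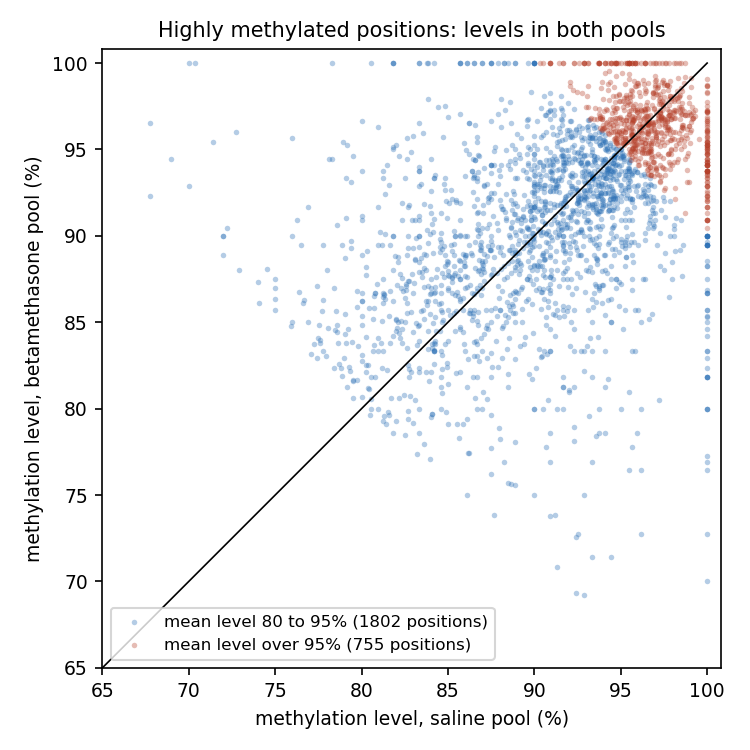
Methylation level of each of the 2557 members in the saline pool (x axis, %) and the betamethasone pool (y axis, %), with the line of equal levels. Points lie on both sides of the line, 1278 above and 1260 below, and the rows of points along the upper and right edges are positions at 100% in 1 pool.

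Differences at single positions were mostly small. The median absolute difference was 2.70 points (95% order-statistic interval 2.57 to 2.84), and 75% of members differed by 5.38 points or less. A difference under 1 point was present at 534 members (20.9%). Differences of at least 10 points were found at 222 members, 108 higher and 114 lower, or 8.68% of them against 10.3% of the whole list. At 20 points or more there were 9 higher and 14 lower members. The same share at 10 points or more was 30.5% at intermediate and 2.53% at low positions outside scaffold 111, and 5.93% at the 725 highly methylated positions on scaffold 111.

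At over 95%, lower betamethasone levels at positions nearly full in saline stood beside lower saline levels at positions nearly full after betamethasone. The number and size of these gaps were similar. The saline pool was over 95% methylated at 826 members, and there the betamethasone pool was lower at 602 (72.9%) and higher at 221. The mean level at these positions was 97.3% after saline and 94.5% after betamethasone. The betamethasone pool was over 95% at 778 members, and there the saline pool was lower at 537 (69.0%) and higher at 238, with means of 97.2% and 94.7%. Choosing positions by a high level in 1 pool itself favours a lower level in the other, so the 2 sets are only set side by side. A gap of 5 points or more was present at 189 of the 826 (22.9%) and at 154 of the 778 (19.8%). A gap of at least 10 points was found at 66 (7.99%) and 59 (7.58%). The other pool was under 80% at 10 positions in the first set and 9 in the second. At over 98% the sets were less alike, with 252 positions for saline and 212 for betamethasone. A gap of 5 points or more was present at 123 (48.8%) and 89 (42.0%), and of at least 10 points at 48 and 37. The shallower pool had a median of 38 and 51.5 reads, in the same order. Both pools were over 95% at 462 members (18.1%).

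**Figure D2:**
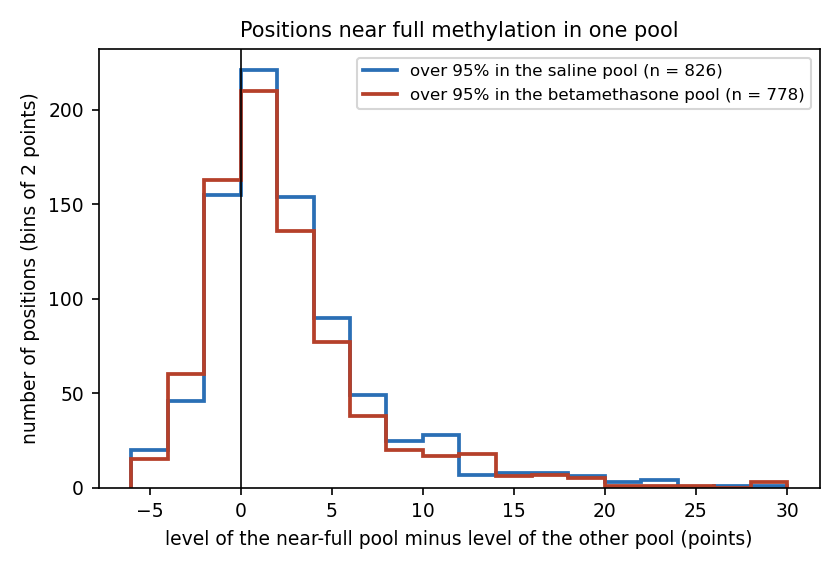
Number of positions (y axis, bins of 2 points) by the level of the pool that is over 95% minus the level of the other pool (x axis, points). The line for 826 positions over 95% in saline and the line for 778 over 95% in betamethasone have nearly the same shape, with tails that reach 30 points in both.

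Differences were smaller near full methylation. The 1802 members at a mean level of 80 to 95% had a median absolute difference of 3.09 points (interval 2.90 to 3.31), and the 755 members over 95% had 1.94 points (interval 1.72 to 2.21). In steps, it was 4.62 points at 80 to 85% (285 positions), 3.56 at 85 to 90% (546 positions) and 2.58 at 90 to 95% (971 positions). All 222 differences of 10 points or more were in the 80 to 95% class. A mean over 95% limits the gap between pools to under 10 points, and the highest found there was 9.68 points. At 80 to 95%, all 23 differences of 20 points or more were at levels up to 90%, for the same arithmetic reason above that level.

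The direction also moved with the level. Higher positions made up 58.5% of those with a difference at 80 to 85% (interval 52.5 to 64.2) and 54.9% at 85 to 90% (interval 50.6 to 59.1). They made up 47.7% at 90 to 95% (interval 44.5 to 50.9) and 47.5% over 95% (interval 43.9 to 51.1). In unmethylated reads, the betamethasone share was 16.9% against 17.7% after saline at 80 to 85%, and 11.9% against 12.6% at 85 to 90%. It was 7.21% against 7.29% at 90 to 95% and 3.54% against 3.47% over 95%. The differences were -0.81 points (interval -1.38 to -0.24), -0.68 points (-1.04 to -0.32), -0.08 points (-0.28 to 0.13) and 0.07 points (-0.10 to 0.23), in the same order. The lower share of unmethylated reads after betamethasone was thus present at 80 to 90%, and above 90% the intervals for read counting included 0. The change in direction across levels was not tested, because neighbouring positions share reads and the 4 level steps were cut from the same values.

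Depth moved with the size of the difference. Where the shallower pool had 10 to 24 reads, the median absolute difference was 6.67 points over 405 members, and 133 of them (32.8%) differed by 10 points or more. At 25 to 49 reads it was 3.96 points, at 50 to 99 reads 2.86 points and at 100 to 199 reads 2.15 points. Where both pools had 200 reads or more it was 1.56 points over 502 members, and the highest difference was 7.36 points. Spearman's rho between the shallower coverage and the absolute difference was -0.44 across the 2557 members, which are not independent. Members at 80 to 95% exceeded those over 95% in each of the 5 depth ranges, at 8.76 against 5.26 points with 10 to 24 reads and 1.89 against 1.12 points with 200 reads or more. The 222 members with 10 points or more had a median of 20 reads in the shallower pool and lay in 130 clusters. The part of read sampling in these differences was not tested.

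**Figure D3:**
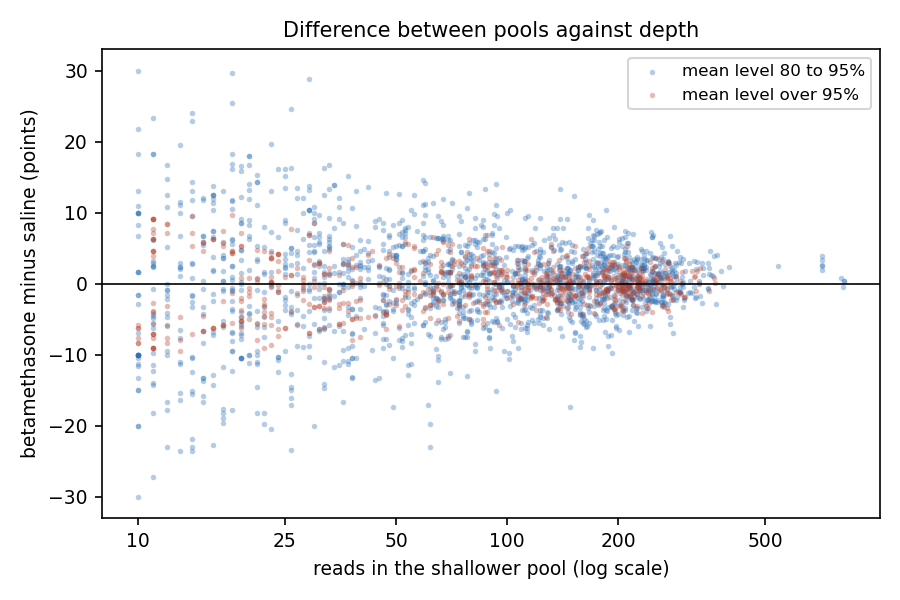
Difference between the pools (y axis, betamethasone minus saline, points) against the number of reads in the shallower pool (x axis, log scale) for each member, coloured by level class. The points narrow from 30 points on either side at 10 to 24 reads to at most 7.36 points at 200 reads or more.

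Full methylation in a pool was found at 263 members, 10.3% of them (95% exact interval 9.13 to 11.5). The saline pool was at 100% at 149 positions (5.83%) and the betamethasone pool at 114 (4.46%), and no member was at 100% in both. Equal levels were not absent from the members, since 19 of them had the same level in both pools. Where saline was full, the betamethasone level had a median of 93.5% (quartiles 89.5% and 95.2%) and a minimum of 70%. Where betamethasone was full, the saline level had a median of 93.8% (quartiles 88.9% and 95.5%) and a minimum of 70%. The other pool held a single unmethylated read at 119 of the 263 positions (45.2%). Among members over 95%, 179 of 755 (23.7%) were full in 1 pool, and at 80 to 95% 84 of 1802 (4.66%) were.

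Full positions were shallow. Their shallower pool had a median of 19 reads, against 110 at the other members. With 10 to 24 reads 165 of 405 members (40.7%) were full in 1 pool, with 25 to 49 reads 71 of 368 (19.3%) and with 50 to 99 reads 25 of 555 (4.50%). With 100 to 199 reads 2 of 727 were, and with 200 reads or more none of 502. The surplus of full saline over full betamethasone positions was 93 against 72 at 10 to 24 reads and 43 against 28 at 25 to 49 reads. At 50 to 99 reads the order was turned, at 11 against 14, and at 100 to 199 reads it was 2 against 0.

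**Figure D4:**
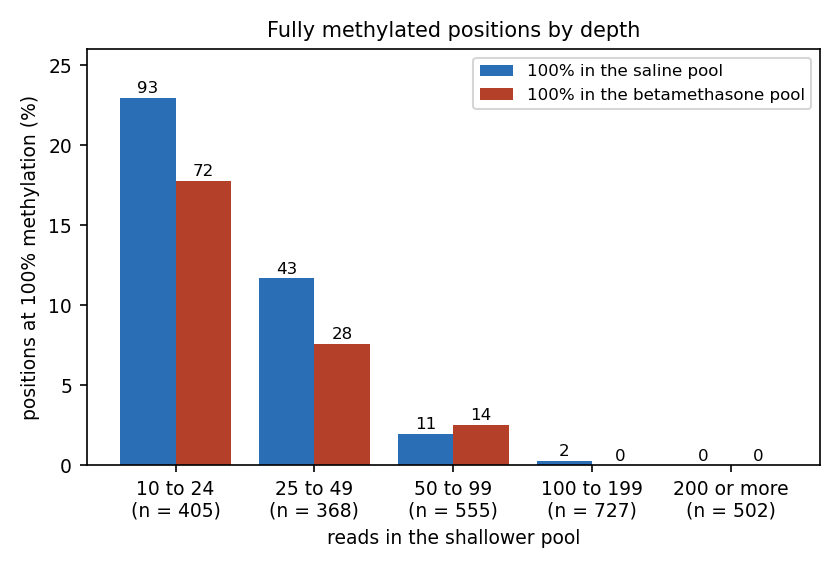
Percent of members at 100% methylation (y axis) in the saline pool and in the betamethasone pool, by reads in the shallower pool (x axis), with the number of positions above each bar. Full positions make up 40.7% of members at 10 to 24 reads, counting both pools, and none at 200 reads or more.

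The 5 full positions with the deepest shallower pool show how much a level of 100% can exclude. The position at 3476237 on scaffold 95 had all 137 saline reads and 162 of 168 betamethasone reads methylated, which gives -3.57 points (interval -7.57 to -0.23). The 137 methylated saline reads allow an unmethylated share of up to 2.66% (exact). The position at 15328987 on scaffold 31 had all 129 saline reads and 121 of 127 betamethasone reads methylated, or -4.72 points (interval -9.92 to -0.87). The position at 3086840 on scaffold 55 had all 111 betamethasone reads but 92 of 97 saline reads methylated, or 5.15 points (interval 0.71 to 11.5). The intervals at these 3 positions lie to one side of 0, yet none passed the adjusted test described next (lowest adjusted p = 0.57, Fisher's exact test). At 3813325 on scaffold 62, full methylation of 96 betamethasone reads stood against 103 of 105 saline reads. At 37153059 on scaffold 4, full methylation of 92 saline reads stood against 105 of 106 betamethasone reads. In both of these the interval included 0.

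A two-sided Fisher's exact test compared methylated and unmethylated reads of the pools at every listed position, with Benjamini-Hochberg adjustment over all 6017. The units compared are the reads of 2 pools and not the 7 animals of each group, on positions listed by the authors from a comparison of the same animals. Among the members 2 passed at an adjusted p under 0.05, both lower after betamethasone, or 0.078% of members against 0.399% of the list. Neither passed when adjusted over the 2930000 tests implied by the deposited rates and second p-values. Only listed positions could be ranked there, so that setting cannot decide whether they would pass among all tests. None of the 780 members with a deposited rate up to 0.001 passed over the list. Without adjustment 115 members had a p under 0.05 (61 higher, 54 lower), or 4.50% against 6.02%. At intermediate positions outside scaffold 111, 19 of 835 passed after adjustment. In the authors' deposited table the first of 2 p-values was under 0.05 at 145 members (68 higher, 77 lower), or 5.67% against 6.20%. The members' shares set against the list here were all below it. Those of low positions outside scaffold 111 and of highly methylated positions on scaffold 111 were below it as well. By Fisher's exact test these were 0.149% and 0% after adjustment, and 4.46% and 4.55% without it. By the authors' first p-value they were 5.57% and 4.41%. Intermediate positions outside scaffold 111 lay above the list, at 2.28%, 14.6% and 10.2% in the same order. Of the 222 members with 10 points or more, 67 (30.2%) had a first p-value under 0.05 in the authors' deposited table.

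Both positions that passed had lower methylation after betamethasone, with at least 148 reads per pool. The position at 28071874 on scaffold 10 was at 73.9% after betamethasone (176 reads) and 91.2% after saline (148 reads), or -17.4 points (interval -25.2 to -9.15, adjusted p = 0.019, Fisher's exact test). It lies in a stretch of 22 listed positions, all of them lower after betamethasone, of which 19 had a mean level of 80% or less and were not members. The other 2 members of that stretch, at 28071758 and 28071759, were at 87.1% against 93.9% and at 82.0% against 88.5%, and neither passed the adjusted test. Of the non-members there, those at 28071722, 28071757, 28071846, 28071881, 28071882 and 28071886 passed it. The largest difference was at 28071846, at 42.6% against 75.4%, or -32.8 points (adjusted p = 2.6e-05, Fisher's exact test). Many of the 22 positions had the same or nearly the same coverage, so they are not separate measurements. The position at 1028137 on scaffold 137 was at 89.5% after betamethasone (171 reads) and 98.6% after saline (213 reads). There were 18 unmethylated betamethasone reads and 3 unmethylated saline reads, or -9.12 points (interval -14.7 to -4.51, adjusted p = 0.037, Fisher's exact test). No other listed position lay within 1000 bp of it, so no neighbour could be compared.

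The next 3 members by Fisher's exact p were all higher after betamethasone and missed the threshold. The position at 12764985 on scaffold 11 was at 95.9% after betamethasone (172 reads) and 83.6% after saline (152 reads, difference 12.4 points, adjusted p = 0.062, Fisher's exact test). The position at 1124056 on scaffold 178 was at 98.3% (231 reads) against 90.9% (209 reads), a gap of 7.36 points with an adjusted p of 0.090 by the same exact test. The position at 69452982 on scaffold 1 was at 95.3% (148 reads) against 82.0% (139 reads), a gap of 13.3 points with an adjusted p of 0.093 by the same exact test. These 3 positions were named after their values had been seen.

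The largest differences among the members rested on few reads. The 5 largest positive ones ran from 24.6 to 30 points. At 11648833 on scaffold 53, methylated reads were 18 of 18 after betamethasone and 7 of 10 after saline, or 30 points (interval 3.95 to 60.3). At 46388685 on scaffold 10 they were 18 of 18 against 19 of 27, or 29.6 points (interval 7.29 to 48.5). At 892414 on scaffold 190 they were 28 of 29 against 21 of 31, and at 2836144 on scaffold 26 they were 17 of 18 against 20 of 29. At 27501 on scaffold 317 they were 24 of 26 against 21 of 31. All 5 intervals lay above 0, but picking the largest differences itself favours this, so it carries no support. None of the 5 passed the adjusted test (lowest adjusted p = 0.39, Fisher's exact test).

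The 5 largest negative differences ran from -23.4 to -30 points. At 59477122 on scaffold 5, methylated reads were 7 of 10 after betamethasone and 12 of 12 after saline, or -30 points (interval -60.3 to 0.94). At 1995886 on scaffold 56 they were 8 of 11 against 24 of 24, or -27.3 points (interval -56.6 to -4.97). At 3501626 on scaffold 81 they were 9 of 13 against 13 of 14, and at 465596 on scaffold 171 they were 13 of 17 against 14 of 14, and both intervals included 0. At 22554134 on scaffold 8 they were 24 of 33 against 25 of 26, or -23.4 points (interval -40.7 to -4.05). Saline was at 100% in 3 of these 5 positions, and none of the 5 passed the adjusted test (lowest adjusted p = 0.73, Fisher's exact test). These 5 were likewise picked by the size of their difference.

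At the threshold, the 3 members closest above 80% were scaffold 317 at 27501 (mean level 80.02%), scaffold 30 at 2133085 (80.07%, 80.6% against 79.5%) and scaffold 15 at 32056318 (80.07%, 79.6% against 80.5%). The closest positions that were not members had a mean level of 80%. These were scaffold 57 at 1282465 and scaffold 62 at 6817501, each with 8 of 10 reads methylated in both pools, and scaffold 64 at 5267180 with 17 of 20 against 15 of 20.

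Joining members that lay under 1000 bp from each other gave 535 clusters. Of these 141 (26.4%) were single positions and 172 held 5 or more, and those 172 contained 1812 members (70.9%). The median cluster had 3 members and the largest 50, and the clusters with 5 or more spanned a median of 249 bp. Neighbouring members within a cluster were a median of 15 bp apart, and 368 of 2022 such neighbours (18.2%) were 1 bp apart. Intermediate positions were more scattered, with 150 of 326 clusters (46.0%) being single positions. Low positions had about the same share of single positions as the members, at 64 of 236 clusters (27.1%). They were denser by other measures, with 79.3% in clusters of 5 or more and neighbours a median of 8 bp apart. Neighbouring members had the same coverage in both pools in 321 of 2022 cases (15.9%) and the same second p-value in the authors' deposited table in 1342 (66.4%), so they are not separate measurements.

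By the mean difference of their members, 279 clusters were higher after betamethasone and 254 lower, with 2 at no difference. Of the 172 clusters with 5 or more members 91 were higher and 81 lower, and 77 had a mean within 1 point of 0. Mean differences in these ranged from -10.2 to 6.86 points, against -16.1 to 33.2 points in the 45 such clusters of intermediate positions. Both directions were present in 167 of the 172, and 5 went one way throughout, 3 higher and 2 lower. At intermediate positions 9 of 45 clusters went one way. Neighbouring members with a difference had the same direction in 1036 of 1990 cases (52.1%), at intermediate positions in 320 of 502 (63.7%) and at low positions in 593 of 1104 (53.7%).

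Positions 1 bp apart, which may be both strands of the same CpG although no sequence was read, gave a measure of how far levels differ within a pool. Over 343 isolated pairs of members the partners differed by a median of 2.44 points within the saline pool and 2.18 points within the betamethasone pool. Between the pools, these positions differed by a median of 2.29 points. The gap between pools was thus about as large as the gap between adjacent positions of the same pool. Both partners had the same direction in 170 of 338 pairs with 2 differences other than 0 (50.3%), 78 higher and 92 lower. Pearson's r between the partners' differences was 0.06 across the 343 pairs, which share animals. With 100 reads or more at both partners, 83 of 181 pairs (45.9%) had the same direction, and the medians were 1.95 points within pools and 1.82 points between them.

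The 5 clusters with the most members all held both directions. The cluster on scaffold 53 from 6969833 to 6972984 had 50 members, 23 higher and 25 lower, at a mean of 90.4% after betamethasone and 90.5% after saline. The cluster on scaffold 62 from 3812519 to 3814280 had 50 members, 23 higher and 26 lower, at 94.9% against 94.6%. The cluster on scaffold 30 packed 46 members into 285 bp, from 2132801 to 2133085, with 21 higher and 24 lower and a mean of 89.2% against 89.1%. The cluster on scaffold 178 from 1123048 to 1125197 had 36 members, 16 higher and 19 lower, at 94.2% against 93.9%. Mean differences in these 4 clusters were under 0.5 points in size, while single positions in them reached -22.7 points. In unmethylated reads, which weight positions by depth, the betamethasone share was 10.6% against 9.37% on scaffold 30 (1.24 points, interval 0.17 to 2.31, read counting only). It was 4.49% against 5.20% on scaffold 62 (-0.71 points, interval -1.41 to -0.02). On scaffolds 53 and 178 the intervals included 0.

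In the remaining cluster, on scaffold 66, most members were higher. From 2759077 to 2760460 it held 49 members, 35 higher after betamethasone and 13 lower, with a mean of 89.4% against 87.0%. The mean difference was 2.43 points with an SD of 4.43 points over positions. Of 6329 betamethasone reads 11.3% were unmethylated, against 13.6% of 5769 saline reads, or -2.31 points (interval -3.49 to -1.13, read counting only). By Fisher's exact test no member passed (lowest p after adjustment 0.53), and 1 of the authors' deposited table's first p-values there was under 0.05. Its span also held 20 listed positions at 12.4 to 79.8% that were not members, 12 higher and 8 lower.

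**Figure D5:**
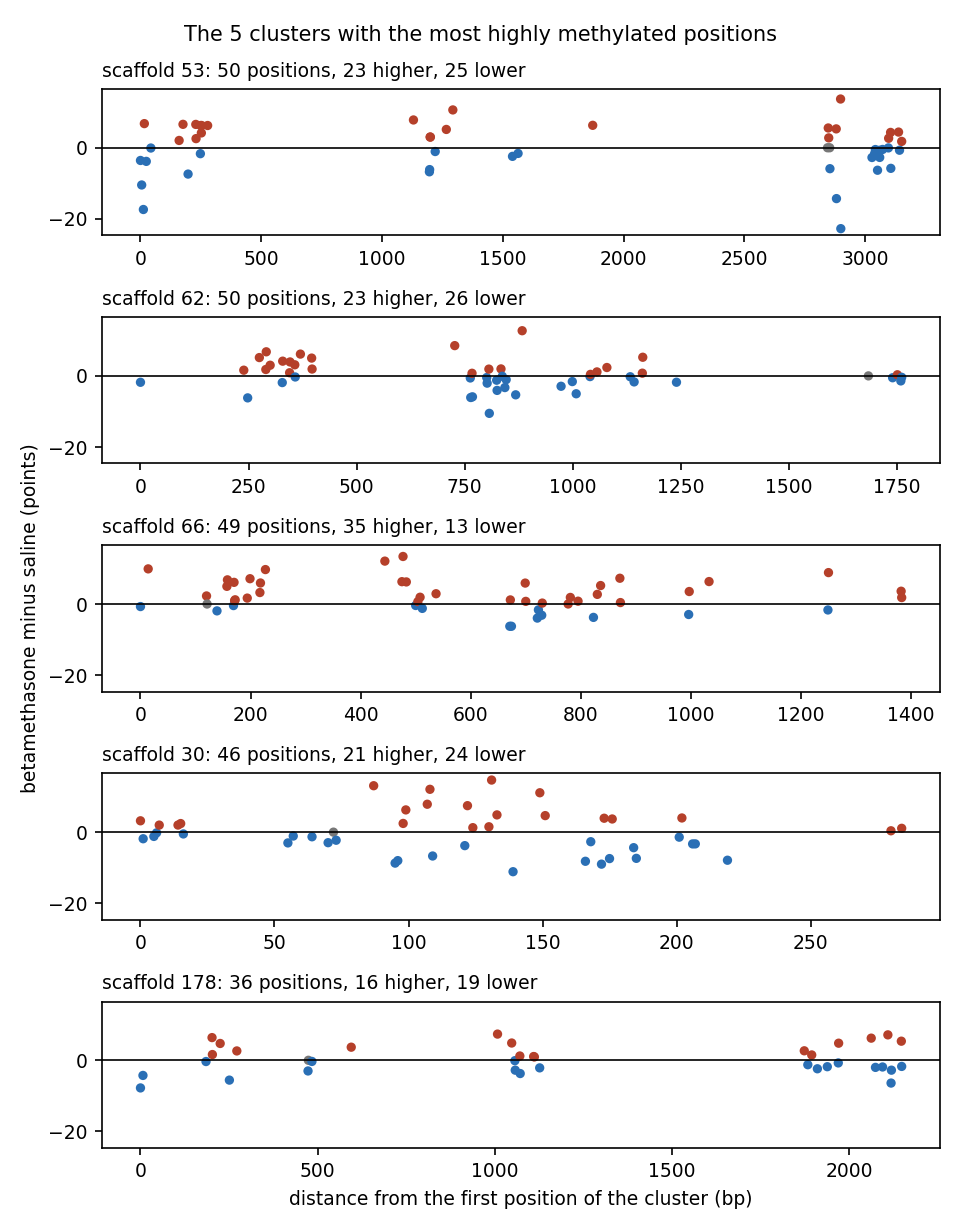
Difference between the pools (y axis, betamethasone minus saline, points) along the 5 clusters with the most members, by distance from each cluster's first position (x axis, bp). Points above 0 are higher after betamethasone. Both directions occur along all 5 clusters, and on scaffold 66 35 of 49 positions are above 0.

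In 3 clusters of 5 or more members all were higher after betamethasone. On scaffold 10 from 1541915 to 1541961, 5 members had 911 or 912 betamethasone reads and 712 or 713 saline reads each, near-identical coverage that is not 5 separate measurements. The differences were 2.42, 3.31, 2.62, 1.95 and 3.87 points, at a mean of 91.9% against 89.0%. A listed position between them that was not a member, at 1541938, was also higher, at 75.1% against 67.3%. On scaffold 90 from 2834081 to 2834215, 6 members with 232 to 279 reads per pool were higher by 0.57 to 3.04 points, at a mean of 96.0% against 94.2%. On scaffold 42 from 8501870 to 8502102, 5 members with 46 to 76 reads per pool were higher by 3.30 to 11.4 points, at 91.5% against 85.9%.

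In 2 clusters of 5 or more members all were lower. On scaffold 108 from 3094269 to 3094325, the betamethasone levels of 5 members were 86.4%, 95.5%, 86.4%, 93.8% and 94.3%. The saline levels were 94.4%, 100%, 88.9%, 100% and 100%, in the same order. Coverage was 22 to 35 reads after betamethasone and 15 to 21 after saline, and 11 of 133 betamethasone reads against 3 of 91 saline reads were unmethylated. On scaffold 156 from 179795 to 180030, 5 members were lower by 0.58 to 6.42 points, at a mean of 87.7% against 90.04%. In the 5 one-way clusters no member passed after adjustment (lowest p 0.25, Fisher's exact test).

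Among the 172 clusters with 5 or more members, the highest and lowest mean differences were on scaffolds 1 and 25. Both clusters were chosen after their values were seen. On scaffold 1 from 69452953 to 69453028, 9 members had a mean of 95.9% after betamethasone and 89.1% after saline, which is 6.86 points higher with an SD of 10.9 points. Unmethylated reads, counted at each position, were 24 of 507 (4.73%) against 70 of 486 (14.4%), or -9.67 points (interval -13.4 to -6.07). The members at 69453023 and 69453028 had identical counts in both pools, so the 9 are not separate measurements. The interval treats them as separate. Of its members 6 were higher and 3 lower. Betamethasone was at 100% at 4 of the higher ones, and saline was at 100% at 2 of the lower ones. Of the 9, 6 had a first p-value under 0.05 by the authors' deposited table, and the lowest adjusted p by Fisher's exact test was 0.093.

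On scaffold 25 from 26546349 to 26546997, 8 members had a mean of 83.7% after betamethasone and 93.8% after saline, with -10.2 points between them (SD 7.40 over positions), and 7 of the 8 were lower. The 5 members from 26546906 to 26546997 differed most. Their betamethasone levels were 80%, 85%, 85.4%, 82.9% and 73.8%, and their saline levels were 96.2%, 100%, 100%, 100% and 87.7%. The first 4 of these rested on 40 or 41 betamethasone reads and 26 saline reads. The span also held 14 listed positions that were not members, at mean levels from 1.47 to 78.6%, with 8 higher and 6 lower. By Fisher's exact test none of its members passed (lowest p after adjustment 0.75). Across all 535 clusters, 108 had at least 1 listed position at 80% or less within their span, 339 such positions in all.

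The members were spread over 138 of the 151 scaffolds with listed positions outside scaffold 111. The median scaffold held 11 members and 12 scaffolds held 1. The 5 scaffolds with the most members held 557 (21.8%), and 19 scaffolds held 50% of them. Scaffold 62 had 194 members in 19 clusters, which is 84.3% of its 230 listed positions, with 87 higher and 105 lower. Scaffold 53 had 115 members (59 higher, 53 lower), 63.5% of its listed positions. Scaffold 25 had 97 in 24 clusters (43 higher, 54 lower), 47.8% of its listed positions. Scaffold 66 had 76 (49 higher, 26 lower), most of them in the cluster described above, and scaffold 13 had 75 (39 higher, 36 lower). Scaffold 28 (40 higher, 35 lower) and scaffold 30 (32 higher, 42 lower) had 75 as well, and the tie was broken by scaffold number. Both directions were present on 120 of the 138 scaffolds. Scaffold lengths are not in the table, so these counts are not densities.

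The deposited false discovery rates of the members were similar to those of other levels outside scaffold 111. A rate need not describe its own position, since neighbours could share one. All 8 members of the scaffold 25 cluster above had 0.031. The scaffold 62 position at 6817501, at 80% in both pools and not a member, had 1.69e-06. The members' median rate in the authors' deposited table was 0.0078, against 0.0093 at intermediate and 0.012 at low positions. A rate of 0.001 or less was deposited for 780 members (30.5%), against 29.3% of intermediate and 21.8% of low positions. The highly methylated positions on scaffold 111 had such a rate in 95.4% of cases. Their median absolute difference was 2.75 points (interval 2.45 to 2.97), close to the 2.70 points of the members. Of those 725 positions 6.48% were at 100% in 1 pool, against 10.3% of the members, at a median coverage of 108 betamethasone and 101 saline reads. Shallow positions were fewer there, with lower quartiles of 52 betamethasone and 50 saline reads against 41 and 43 at the members. Both pools had at least 50 reads at 73.5% of those positions and at 69.8% of the members.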

How the data were processed

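Reduced representation bisulfite libraries were made from dried blood spots of 14 newborn female guinea pigs, 7 per treatment, grouped by their titles. The submitters' processing notes name Bismark 0.16.0, SAMtools 1.9, Bowtie2 2.3.4.3 and Trim Galore. A genome build, a differential test and any filter were not given in the sources used here.

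Whole-number counts of methylated reads were deposited for each position, summed per group, beside the authors' coverage, the number of all reads there. The authors' methylation level is a fraction, methylated reads divided by coverage. The deposited difference is a score in percentage points, case minus control. Per the file headers the columns are case and control, and case was read as betamethasone because the series design names saline as control. Also deposited were a first and a second p-value, and a false discovery rate, with no description of the tests. Differences recomputed from the counts matched at all 6017 positions within 1e-05 points.

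From these counts, levels, clusters (under 1000 bp) and a two-sided Fisher's exact test with Benjamini-Hochberg adjustment were computed. The threshold was 0.05. Intervals are 95%: exact for shares, Newcombe for differences, order-statistic for medians. They cover counting only, since without molecular identifiers reads may repeat the same molecule. Fisher's exact test was also run on simulated reads, drawn independently for each position. Neighbouring positions here share reads and each pool sums several animals, so that run cannot show the error rate of the test in these data. Named positions were the 5 largest differences each way, those passing Fisher's exact test, 3 on either side of 80%, the 5 deepest at 100% in 1 pool, the 5 largest clusters and scaffolds, and one-way clusters of 5 or more. The members and lists were chosen with earlier results of these data known. Alternatives were other levels, depths, distances and thresholds. The software was matplotlib 3.10.9, pandas 2.3.3, scipy 1.17.1, numpy 2.4.6 and Python 3.11.15.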

Additional observations from a re-analysis of the deposited data

How the results depend on the processing

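Of 44 values recomputed under alternatives, 35 stayed within the interval of the reported value, or within 1.5 times of a count. The share of higher members (6 of 6 alternatives) and the difference in unmethylated read share (6 of 6) did. A reversal of sign was looked for only in the difference in unmethylated read share, and none was found. The share of higher members was 50.4% as reported and 49.3% at levels over 85%, where lower positions were thus the more common. The number passing Fisher's exact test was 2 as reported, 1 at levels over 85% and 0 with deposited rates up to 0.001. It was 0 when adjusted over the 2930000 tests implied by the deposited rates and second p-values. That adjustment ranked listed positions only, so its count may be too low. The median absolute difference was 2.56 points at levels over 85% and 2.17 points with at least 50 reads in both pools. The share at 100% in 1 pool was 1.51% with at least 50 reads and 12.3% with deposited rates up to 0.001, where 118 clusters were left of 535. Fewer positions enter under both settings. The setting of at least 50 reads leaves out the ranges of 10 to 24 and 25 to 49 reads. These held 165 and 71 of the 263 positions full in 1 pool. Beyond this the cause of the changes was not tested. Splitting the level classes at 90% raised the gap between their medians from 1.15 to 1.57 points. That split moves the 971 positions at 90 to 95%, with a median of 2.58 points, to the upper class. The steps left in the lower class had medians of 4.62 points (80 to 85%) and 3.56 points (85 to 90%). No further cause was tested. Leaving out the 5 largest clusters, or positions over 500 reads, was added after seeing the data. No paired analysis was possible because the reads of the 7 animals in each group had been summed before deposit, and for that reason no animal was left out in turn.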
